A study of Mus musculus with 2 samples.

Results

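The genes described here are 10 mouse genes that act in the removal of damaged mitochondria by autophagy: the kinase gene *Pink1*, the receptor genes *Bnip3*, *Bnip3l*, *Fundc1* and *Bcl2l13*, the adaptor genes *Sqstm1* and *Optn*, and the ATG8 genes *Map1lc3a*, *Map1lc3b* and *Gabarapl1*. Every probe with 1 of these gene names was taken from the arrays, which gave 21 probes of 10 genes out of 37074 gene names on the array, of which 20165 were detected. RNA was measured in primary hepatocytes of 2 genotypes, with 1 one-color Agilent array per genotype. *Drp1*LiKO mice carried the alleles *Drp1* flox/flox together with the transgene Alb-Cre Tg/+, in which the albumin promoter drives Cre recombinase in hepatocytes, and their cells are called knockout cells here. Control mice were littermates with *Drp1* flox/flox and no Cre, listed as wild type, and both genotypes were on the C57BL/6 background. The age of these mice and the number of animals behind each array are not given in the sources used here. Cells were freed from the liver with collagenase, enriched by a slow spin, plated on collagen in medium with high glucose, insulin and serum, and harvested 24 h after seeding without any further treatment.

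Mitophagy delivers mitochondria to lysosomes by way of the autophagosome, a double membrane that carries lipid-bound ATG8 proteins on its surface. On mitochondria that have lost their membrane potential, PINK1 is stabilized and marks proteins with phospho-ubiquitin, which adaptors such as optineurin and p62 recognize. BNIP3, NIX, FUNDC1 and BCL2L13 sit in the outer mitochondrial membrane and bind ATG8 proteins directly, without ubiquitin. DRP1, the GTPase that divides mitochondria, yields small fragments that are more easily engulfed, and the liver uses the process to keep its many mitochondria intact. The comparison asked whether transcripts of this machinery differed between hepatocytes with and without *Drp1*.

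Signals are the processed intensities of the scanner software, before scaling, and each ratio is the log2 signal in *Drp1*LiKO minus that in control cells after the 75th percentile of each array (signals of 313 in control and 356 in knockout cells) was subtracted. The log2 scale therefore places a probe with equal raw signals at a ratio of -0.18. With 1 array per genotype no replicate and no test exist, and each ratio describes these arrays. Its only measured errors are technical. The noise between spots, from 281 probes printed several times on each array, gave member genes an SD of the ratio between 0.05 and 0.11, and the error estimate of the scanner software, which also covers an assumed proportional error, was 0.20 for the brightest probe of every member. The study used a Z score of 2 as threshold, which corresponded over 30275 probes to a log2 ratio of 1.30 or more in one direction and -1.31 or less in the other. The floxed gene, listed as *Dnm1l*, had signals of 2602 in control and 1217 in knockout cells at its brightest probe, a log2 ratio of -1.28 with a Z score of -1.94, and -0.31 at its other probe. Of 11 hepatocyte markers 8 had ratios above 0 and 1 passed the threshold, with a median ratio of 0.19. The marker that passed was *Ahsg*, with signals of 12810 in control and 51568 in knockout cells and a ratio of 1.83. The summed level of the hepatocyte markers, in units of the 75th percentile, was 2263 in control and 2353 in knockout cells. Most of this sum came from *Alb* and *Serpina1a*, with ratios of 0.10 and -0.18. Of 14 listed macrophage markers 12 were detected. All 12 had ratios above 0 and 10 passed the Z score threshold, with a median ratio of 2.28. Their summed level was 35.9 in control and 80.0 in knockout cells. The largest part of the control sum came from *Cd14*, with signals of 6407 in control and 8419 in knockout cells and a ratio of 0.21. Of the macrophage markers, *Clec4f* and *Vsig4* were not well above background in control cells, and *Cd163* and *Timd4* on neither array. All 8 endothelial markers had ratios above 0 and 4 passed the threshold, with a median ratio of 1.60. Their summed level was 13.3 in control and 23.8 in knockout cells. Most of this sum came from *Egfl7*, with signals of 3773 in control and 6941 in knockout cells and a ratio of 0.70. *Lyve1* and *Tek* were not well above background in control cells. Of 7 detected stellate cell markers 6 had ratios above 0 and 2 passed, with a median ratio of 1.04. Of these, *Des*, *Pdgfrb* and *Rgs5* were not well above background in control cells. The summed level of the stellate cell markers was 69.5 in control and 73.5 in knockout cells. Most of this sum came from *Acta2*, with signals of 21437 in control and 24640 in knockout cells and a ratio of 0.02. Of 4 detected cholangiocyte markers 2 had ratios above 0 and 0 passed, with a median ratio of 0.09. Their summed level was 93.8 in control and 70.0 in knockout cells. Most of this sum came from *Spp1*, with signals of 24719 in control and 20346 in knockout cells and a ratio of -0.46. In such bulk RNA, more cells of a type and more RNA per cell cannot be told apart, and the part of these other cells in the ratios of the members was not tested.

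The probes are 60 bases long and report only the stretch they match. Those shown here are the probes of *Pink1* and *Optn* that cross an exon boundary by their listed range, and the probes of *Sqstm1* and *Map1lc3b* that stand beside a brighter probe of the same RefSeq transcript, since the ratios of these genes differed between probes. Coordinates are those of the array files in mm9, and no annotation of that build was used. The *Pink1* probe lies on the minus strand of chr4:137873943-137875912, a range of 1970 bases, the *Optn* probe on the minus strand of chr2:4945178-4948201, a range of 3024 bases, the *Sqstm1* probe on the minus strand of chr11:50015985-50016044 and the *Map1lc3b* probe on the plus strand of chr8:124119924-124119983.
Pink1: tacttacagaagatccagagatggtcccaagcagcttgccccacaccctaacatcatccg
Optn: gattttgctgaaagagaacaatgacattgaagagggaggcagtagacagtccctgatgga
Sqstm1: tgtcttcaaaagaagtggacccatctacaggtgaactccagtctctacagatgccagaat
Map1lc3b: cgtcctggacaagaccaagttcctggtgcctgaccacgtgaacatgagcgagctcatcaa

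Promoter sequences from RefSeq (GRCm38.p6) were at hand for 8 of the 10 genes. The 250 bases before each start were searched on both strands for CACGTG, the E-box bound by TFEB among others. They were also searched for ACGTG, a form of the core of the hypoxia response element, which is contained in CACGTG. The last motif was TGACNNNGC, the core of the antioxidant response element. Other forms of the hypoxia core were not searched. Of 21263 promoters of protein-coding genes, 6.63% held the first motif, 17.8% the second and 10.4% the third. Among the 8 members, only *Bnip3* held CACGTG, which starts 108 bases before the transcription start and is a palindrome that also gives ACGTG on both strands, and only *Bcl2l13* held TGACNNNGC, at 113 and 92 bases before its start. The promoters of *Fundc1*, *Gabarapl1*, *Map1lc3b*, *Optn*, *Pink1* and *Sqstm1* held none of these letters in this window. The 2 promoters with a match are shown, with the matches in capitals. A match in 1 of 8 promoters lies near the shares over all promoters. They belong to the members with the highest and the lowest ratio, but a link between match and ratio was not tested. The promoters of *Bnip3l* and *Map1lc3a* were not searched, and *Map1lc3a* differed from *Bcl2l13* by less than the noise between spots. *Bnip3* lies on the minus strand at chr7:138909507-138909756 and *Bcl2l13* on the plus strand at chr6:120835980-120836229.
Bnip3: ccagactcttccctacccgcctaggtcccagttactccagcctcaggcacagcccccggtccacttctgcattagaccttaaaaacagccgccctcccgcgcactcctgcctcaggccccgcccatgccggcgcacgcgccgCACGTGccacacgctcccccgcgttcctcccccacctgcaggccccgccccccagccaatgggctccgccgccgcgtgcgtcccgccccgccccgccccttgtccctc
Bcl2l13: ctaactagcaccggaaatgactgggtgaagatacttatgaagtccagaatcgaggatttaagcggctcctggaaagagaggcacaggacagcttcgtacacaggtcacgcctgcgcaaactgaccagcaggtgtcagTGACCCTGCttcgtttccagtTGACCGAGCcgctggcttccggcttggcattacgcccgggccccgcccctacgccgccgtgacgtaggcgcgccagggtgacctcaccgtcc
A match describes these letters and not a bound factor. The 8 member promoters held between 8 and 30 CG dinucleotides in 250 bases, with a median of 13.5 against 10 over all promoters.

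Among the receptors, *Bnip3* had the highest ratio and *Bcl2l13* the lowest. *Bnip3*, whose product is a receptor induced under low oxygen, gave a signal of 3571 in control and 5686 in knockout cells at its only probe (chr7:146082760-146082819 in mm9). The log2 ratio was 0.49, a 1.40-fold higher level, which is 7.39 times the noise between spots and 2.39 times the error estimate of the scanner software. Of all detected genes, 12.8% had a higher ratio, and the Z score was 0.76. *Bnip3l* encodes NIX, the receptor that clears mitochondria from maturing red blood cells. Its brightest probe (chr14:67606210-67606269) gave a signal of 6221 in control and 6428 in knockout cells, a log2 ratio of -0.14 after scaling. Its other probe, for which the file lists a range of only 12 bases (chr14:67604077-67604088), had signals of 2419 and 2192 and a ratio of -0.32. Both probes of *Bnip3l* were thus below 0, whereas *Bnip3* was above, but with the normalized values deposited by the authors the *Bnip3l* probes were at -0.05 and 0.0022 and *Bnip3* at 0.72.

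*Fundc1*, which encodes a receptor of the outer membrane regulated by phosphorylation, had the lowest brightest-probe signal of the 10 genes, 689 in control and 908 in knockout cells (chrX:17133867-17133926). Its log2 ratio of 0.22 was 1.99 times the noise between spots and 1.06 times the scanner error estimate. That noise came from the 31 probes printed several times that were nearest in signal. Every dimmer member probe received the same value of 0.11, so it is not specific to their signals. *Bcl2l13* encodes a receptor related to BCL-2. Its brightest probe (chr6:120838670-120838729) had signals of 2405 in control and 2272 in knockout cells and a log2 ratio of -0.26. A further probe of the same RefSeq transcript had signals of 1156 and 1202 with a ratio of -0.13, and a dim probe for AK197642 had signals of 34.6 and 32.4 with a ratio of -0.28. The probe for AK171256 was not well above background on either array. All 3 detected *Bcl2l13* probes were below 0, and the ratio of the brightest was 1.30 times the scanner error estimate. With the deposited normalized values this shared direction was lost, since the brightest probe was at -0.03 and the further RefSeq probe at 0.12.

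From the processed signals, *Pink1* was the only gene with probes on both sides of 0. Its brightest probe (chr4:137869360-137869419) gave a signal of 2612 in control and 2827 in knockout cells. After scaling the log2 ratio was -0.07, below both the noise between spots (SD 0.08) and the scanner error estimate. The probe across the exon boundary shown above had signals of 220 in control and 331 in knockout cells and a log2 ratio of 0.40, a 1.32-fold higher level and 1.94 times its scanner error estimate. Both probes are listed for the RefSeq transcript NM_026880. The direction of *Pink1* thus depended on the probe, and on the median of both probes its ratio was 0.17. With the deposited normalized values both probes were below 0, at -0.12 and -0.45.

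**Figure D1:**
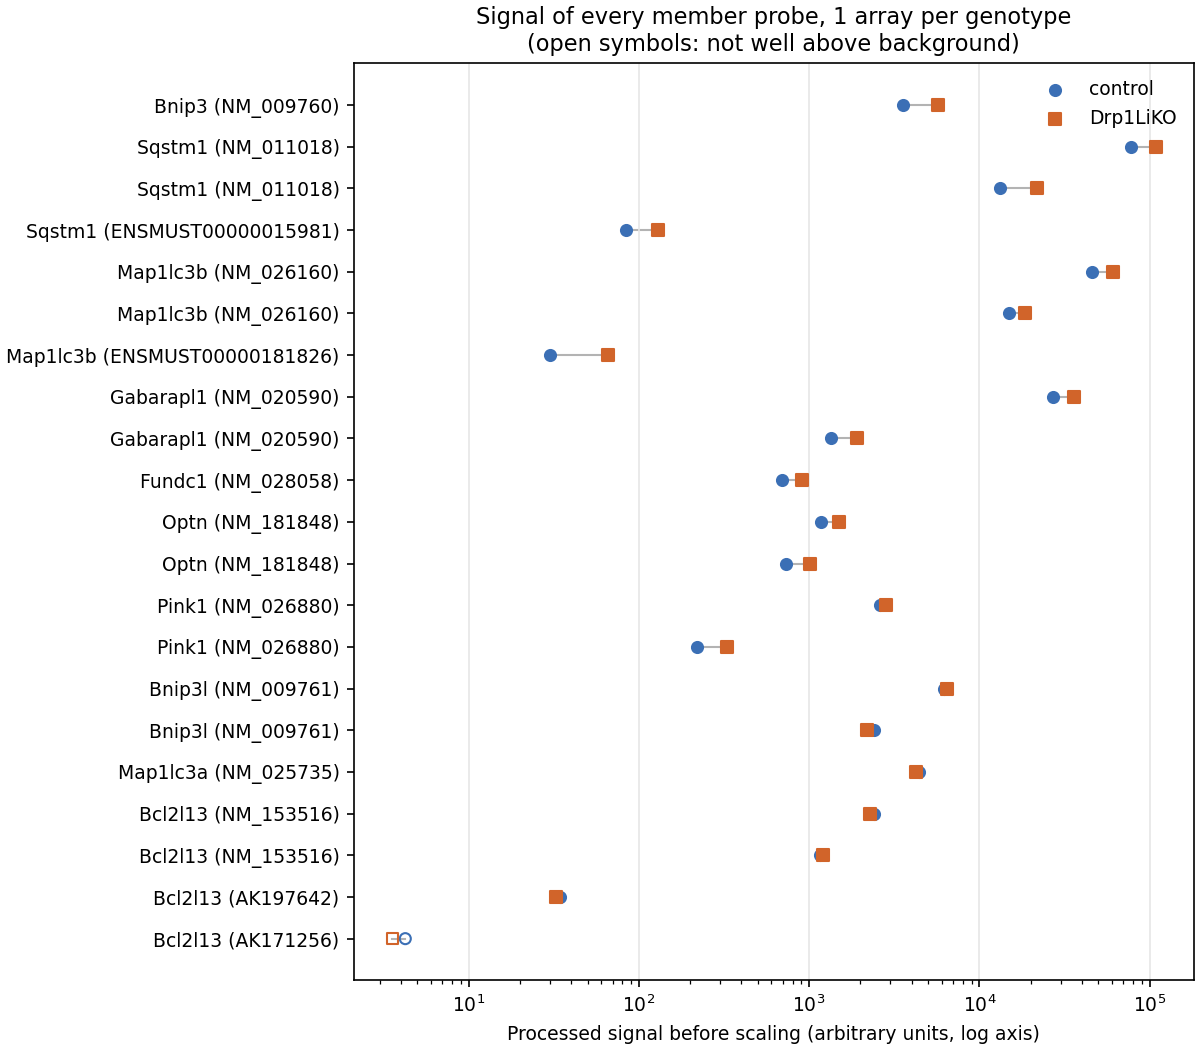
Processed signal (arbitrary units, log axis) of all 21 probes of the 10 genes in control (blue circles) and knockout cells (orange squares), 1 array each, before scaling. Each line joins the arrays for 1 probe, named by gene and accession. Open symbols mark the *Bcl2l13* probe that was not well above background. Knockout signals lie to the right of control at every probe of *Bnip3*, *Fundc1*, *Pink1*, *Optn*, *Sqstm1*, *Map1lc3b* and *Gabarapl1*. These signals still hold the difference of 0.18 in log2 between the 75th percentiles of the arrays.

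Both adaptors had ratios above 0 at every probe. *Sqstm1* encodes p62, which links ubiquitin-tagged cargo to ATG8 proteins and is itself degraded by autophagy. Its brightest probe (chr11:50013670-50013729) gave a signal of 77374 in control and 108415 in knockout cells, a log2 ratio of 0.30 or 1.23-fold, 6.03 times the noise between spots and 1.49 times the scanner error estimate. The probe shown above had signals of 13179 and 21947, with a ratio of 0.55 or 1.47-fold, which is 2.71 times the scanner error estimate. A dim probe for ENSMUST00000015981 had signals of 84.3 and 129 and a ratio of 0.43. The ratios of the 3 *Sqstm1* probes thus ranged from 0.30 to 0.55. They were 0.35, 0.29 and 0.18 in the same order with the deposited normalized values, and the dim probe was at 0.24 with normexp background correction, so that the order of the probes depended on the processing while all stayed above 0. No member spot was saturated.

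*Optn* encodes optineurin, an adaptor phosphorylated by TBK1 that serves PINK1-dependent mitophagy. Its brightest probe (chr2:4941834-4941893) gave a signal of 1174 in control and 1506 in knockout cells and a log2 ratio of 0.18, within the scanner error estimate. The probe across the exon boundary had signals of 730 and 1018 and a ratio of 0.30. Under the deposited normalized values the brightest probe had a ratio of -0.03 and the other 0.32.

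The ATG8 genes did not share a direction. *Map1lc3b*, which encodes LC3B, the protein most often used to mark autophagosomes, gave a signal of 45965 in control and 60864 in knockout cells at its brightest probe (chr8:124120787-124120846), a log2 ratio of 0.22 or 1.17-fold. The probe shown above had signals of 14897 and 18512 and a ratio of 0.13. A dim probe for ENSMUST00000181826 had signals of 30.2 and 65.6 and a ratio of 0.94 or 1.91-fold, but normexp background correction gave 0.28 and the deposited normalized values -0.24 for this probe. *Gabarapl1*, an ATG8 gene of the GABARAP branch, had signals of 27096 in control and 35874 in knockout cells (chr6:129492254-129492313), a log2 ratio of 0.22, and signals of 1342 and 1920 at its other probe, a ratio of 0.33. *Map1lc3a*, which encodes LC3A, had signals of 4407 in control and 4217 in knockout cells at its only probe (chr2:155103435-155103494), a log2 ratio of -0.25 that is 1.21 times the scanner error estimate. *Map1lc3b* and *Gabarapl1* were thus above 0 and *Map1lc3a* below, but with the deposited normalized values the *Gabarapl1* probes were at -0.03 and -0.45 and *Map1lc3a* at 0.20.

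**Figure D2:**
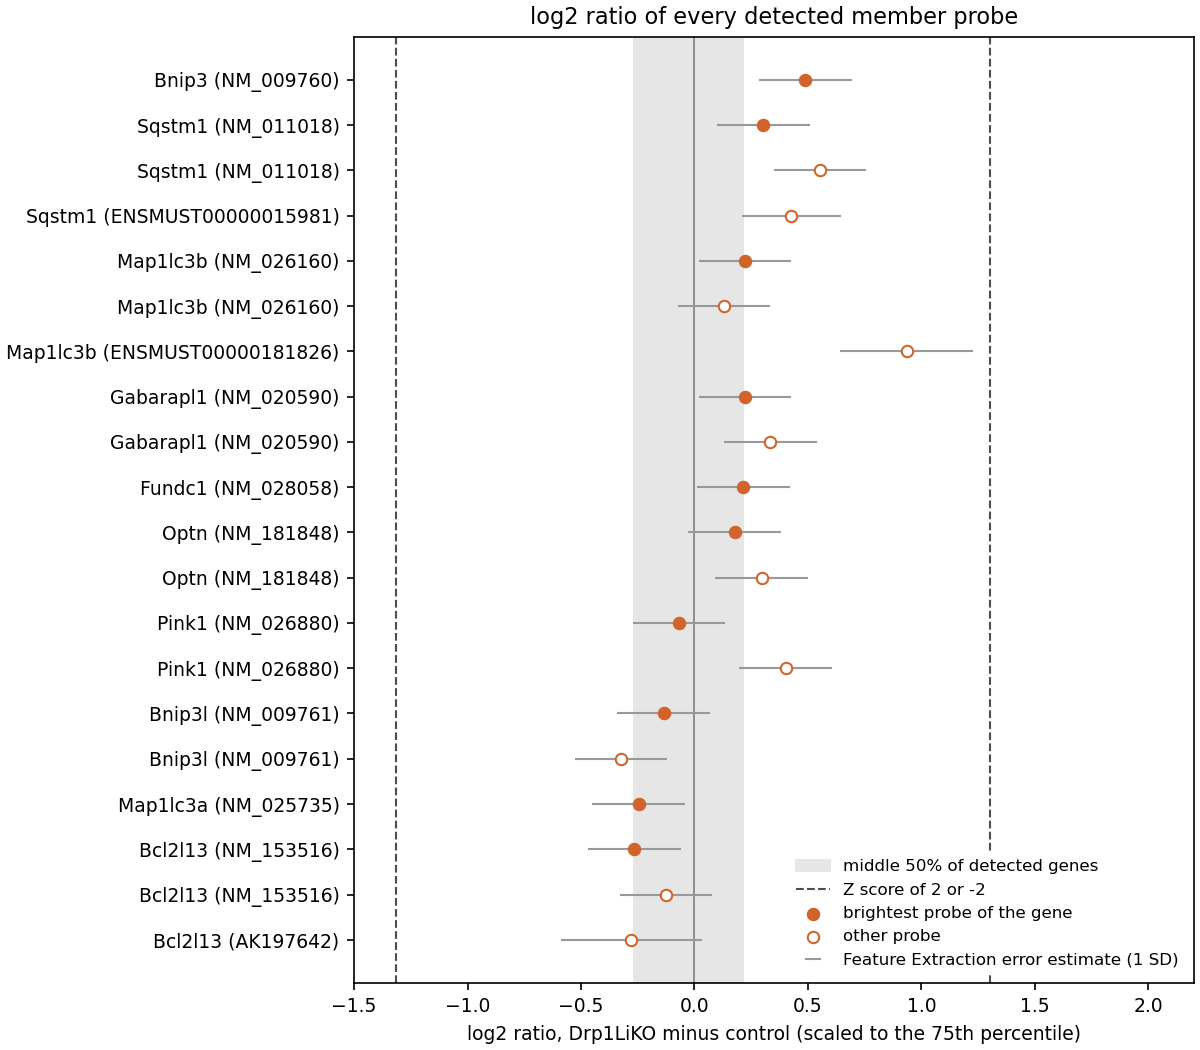
Log2 ratio of the 20 detected probes of the 10 genes, *Drp1*LiKO minus control after scaling, with the error estimate of the scanner software as 1 SD (bars). Filled points are the brightest probe of a gene and open points its other probes, the gray band holds the middle 50% of all detected genes and dashed lines mark Z scores of 2 and -2. All probes lie between the dashed lines, and *Pink1* has 1 probe on each side of 0.

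Taken by their brightest probes, 0 of the 10 members passed the Z score threshold in either direction, beside 3.48% of all detected genes that passed it as higher (702 of 20165) and 2.81% as lower (567). None of the 10 reached 1.5-fold, beside 10.4% of all genes that were at least 1.5-fold higher and 10.3% that were at least 1.5-fold lower. With 10 genes, a count of 0 lies near these shares. The largest Z score in size was 0.76, and 74.3% of all detected genes had ratios no larger in size than that of *Bnip3*. The median size of the ratio, without its sign, was 0.22 over the members and 0.24 over all genes. In direction, 6 members were above 0 and 4 below, with a median log2 ratio of 0.20, whereas 44.6% of all genes were above 0 and their median was -0.05. Of the 10 members, 5 lay above the upper quartile of all genes (0.22), the other 5 lay within the middle 50%, and 0 lay below the lower quartile (-0.26). These counts rest on members at the limits, since *Fundc1*, *Map1lc3b* and *Gabarapl1* exceeded the upper quartile and *Bcl2l13* missed the lower by less than the noise between spots. The median of the members was 0.07 with the deposited normalized values.

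Of the 10 ratios, 7 exceeded 2 times the noise between spots, 7 exceeded the scanner error estimate, and only that of *Bnip3* exceeded 2 times that estimate. Of 7 members with several detected probes, 6 had all probes on one side of 0, and *Pink1* did not. In the order of the ratios, *Map1lc3b*, *Gabarapl1* and *Fundc1* followed *Bnip3* and *Sqstm1* and lay within 0.01 of each other, less than the noise between spots, and *Map1lc3a* and *Bcl2l13* at the lower end differed by less than that noise as well.

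Other genes of the pathway were taken from lists. Of 28 other mitophagy genes, 13 had ratios above 0 and 15 below, 0 passed the Z score threshold, and their median was -0.08. The highest was *Fundc2*, the paralog of *Fundc1*, with signals of 1980 in control and 3869 in knockout cells, a log2 ratio of 0.78, and ratios between 0.72 and 0.79 over its 3 probes. The lowest was *Oma1*, a protease of the inner mitochondrial membrane, with signals of 177 and 155 and a ratio of -0.38. *Park2*, which encodes the ubiquitin ligase Parkin that acts with PINK1, and which was added after its value was seen, had signals of 674 and 619 and a ratio of -0.31. Of 14 detected adaptors of other forms of selective autophagy, 7 were above and 7 below 0, with a median of -0.04 and 0 past the threshold. They ranged from *Fam134b*, a receptor for autophagy of the endoplasmic reticulum, at 0.61 to *Sec62* at -0.28.

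Genes of the core machinery were counted by step. Of 21 genes of autophagy initiation, 9 were above and 12 below 0, with a median of -0.10 and a range from *Zfyve1* at 0.28 to *Wipi1* at -0.52. The direction of *Zfyve1* depended on the probe, since its 3 probes had ratios between -0.37 and 0.28. *Wipi1* encodes a protein that binds the lipid of the forming autophagosome, and its 3 probes had ratios between -0.93 and -0.50. Of 19 genes of ATG8 conjugation, other ATG8 proteins and autophagosome fusion, 16 were above and 3 below 0, with a median of 0.21. None passed the threshold, and the highest was *Tecpr1*, which acts in fusion of autophagosomes with lysosomes, with signals of 2379 in control and 6045 in knockout cells, a log2 ratio of 1.16 and a Z score of 1.79. At least 1 gene of this list passed the threshold under 6 of the 12 other settings tried. *Atg7*, the E1-like enzyme of the conjugation and the next highest, also added after its value was seen, had signals of 1708 and 3132 and a ratio of 0.69, with 0.59 at its other probe. The lowest was *Atg4a* at -0.25. Whether the lists differ from each other or from the members was not tested.

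**Figure D3:**
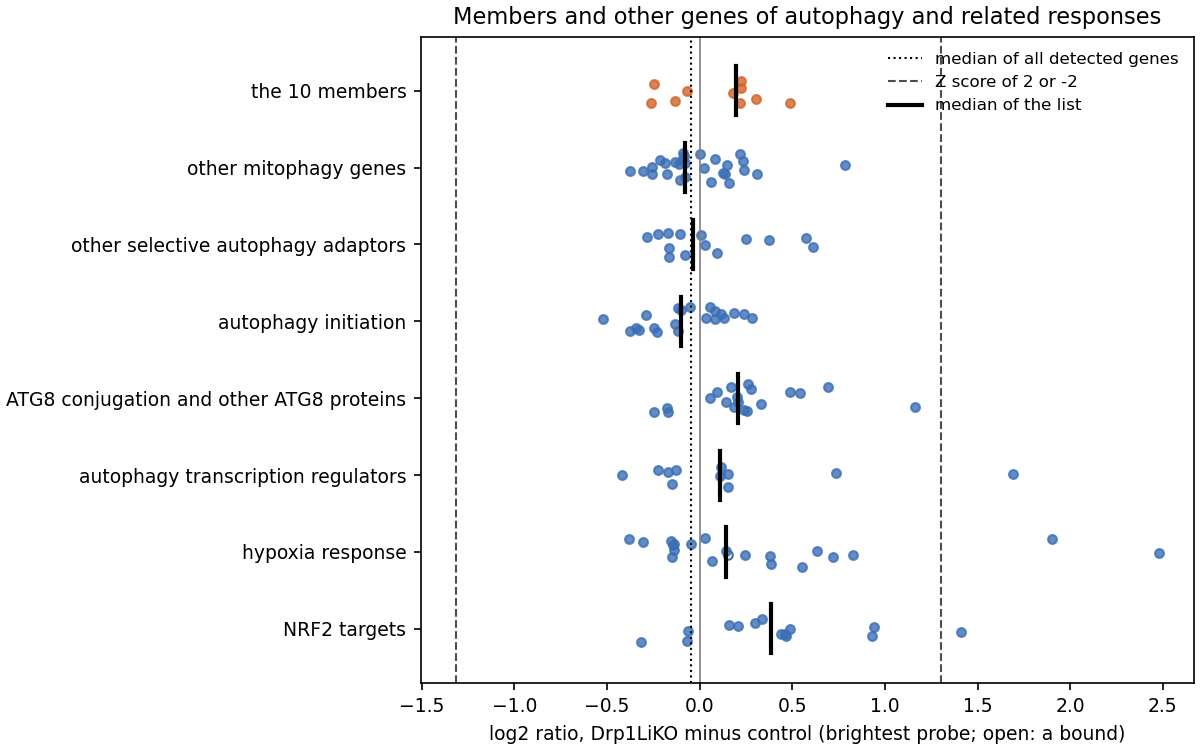
Log2 ratio, *Drp1*LiKO minus control, of each detected gene (brightest probe) in the 10 members (orange) and in 7 lists of related genes (blue), with the median of each list as a thick bar. The dotted line is the median of all detected genes and the dashed lines are Z scores of 2 and -2, and an open symbol is a bound from a dim probe. *Pfkfb4*, *Adm*, *Ppargc1a* and *Gpx2* lie past the upper dashed line and no gene lies past the lower.

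Regulators and responses that are known to act on the members were measured on the same arrays. Of 11 transcription regulators of autophagy, 6 were above and 5 below 0, with a median of 0.11, and 1 passed the threshold. This was *Ppargc1a*, which encodes the coactivator of mitochondrial biogenesis PGC-1α. Its signals were 133 in control and 489 in knockout cells, a log2 ratio of 1.69 or 3.23-fold, and 1.80 at its other probe. However, 0 genes of this list passed with the deposited normalized values or with no floor for dim signals. Having no floor changed the Z score of *Ppargc1a* and not its ratio, since it was well above background on both arrays. The lowest was *Nfe2l2*, which encodes NRF2, with signals of 7439 and 6313 and a ratio of -0.42, but 0.28 at its other probe. Of 21 genes of the hypoxia response, to which *Bnip3* also belongs by its known regulation, 13 were above and 8 below 0, with a median of 0.14. The 13 include *Car9*, whose ratio of 0.15 rests on the floor, since its control signal of 3.84 was below it. Its other probe was at -0.70. *Pfkfb4*, an enzyme that controls glycolytic flux, passed the threshold with signals of 68.0 and 429 and a ratio of 2.48, and *Adm*, which encodes adrenomedullin, with signals of 503 and 2129 and a ratio of 1.90. The lowest was the collagen hydroxylase gene *P4ha2* at -0.38. Of 14 NRF2 targets, a response to which *Sqstm1* also belongs, 11 were above and 3 below 0, with a median of 0.39. *Gpx2*, a glutathione peroxidase gene, passed the threshold with signals of 82.7 and 250 and a ratio of 1.41. It did not pass with no floor for dim signals, which changed its Z score and not its ratio. *Prdx1* was lowest at -0.32 by its brightest probe, but its 4 probes ranged up to 0.36. The higher signals of *Bnip3* and *Sqstm1* thus stood beside lists in which most genes were above 0, and what links them was not tested.

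**Figure D4:**
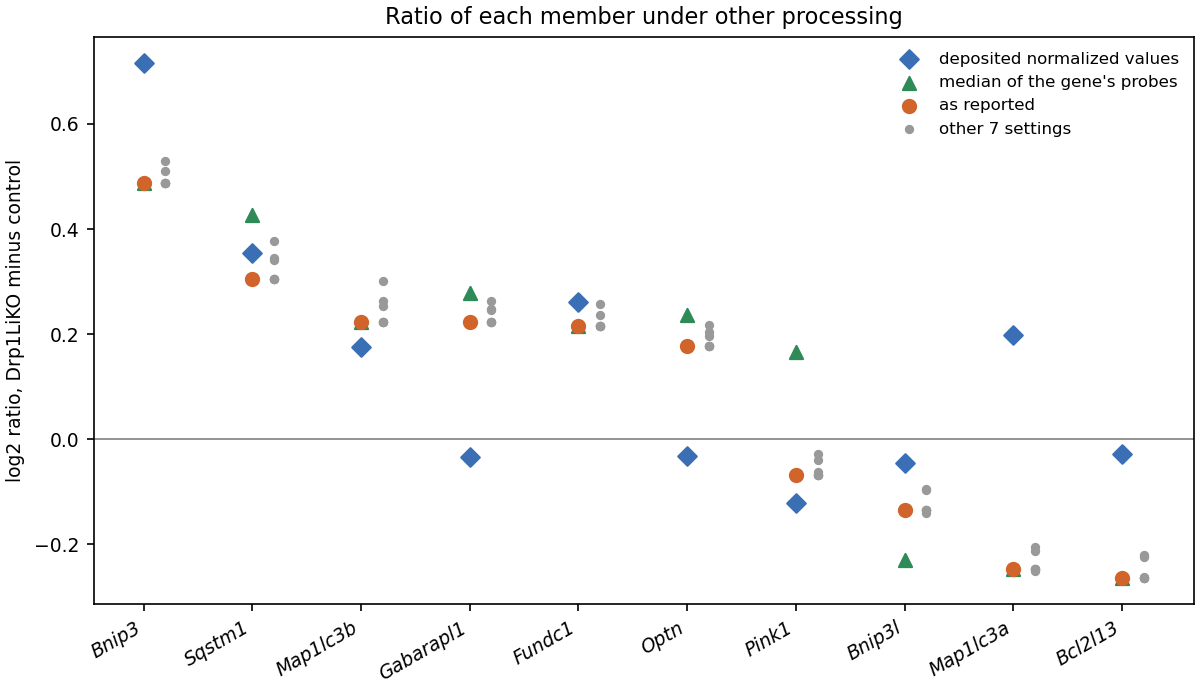
Log2 ratio of each member, *Drp1*LiKO minus control, as reported (orange circles), with the deposited normalized values (blue diamonds), with the median of all probes of the gene (green triangles) and under 7 other ways of processing (gray points), of which 4 left every member within 0.001 of the value as reported. *Bnip3*, *Sqstm1*, *Map1lc3b* and *Fundc1* lie above 0 and *Bnip3l* and *Bcl2l13* below 0 in all points.

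Of 9 alternatives that could change a ratio, 5 moved that of at least 1 member by more than 0.001 (quantile normalization, normexp background correction, spike-in scaling, the deposited normalized values and the median of the probes of a gene), and the direction of 6 members by their reported probe or median was the same under these 5. *Bnip3* ranged from 0.49 to 0.72, *Sqstm1* from 0.30 to 0.43, *Map1lc3b* from 0.17 to 0.30 and *Fundc1* from 0.21 to 0.26. *Bnip3l* ranged from -0.23 to -0.05 and *Bcl2l13* from -0.26 to -0.03. *Gabarapl1*, *Optn* and *Map1lc3a* changed sign under the deposited normalized values, and *Pink1* under the median of its probes.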

How the data were processed

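RNA of primary hepatocytes, 1 array for control and 1 for *Drp1*LiKO mice, was labeled with Cy3 and hybridized to 60-mer Agilent mouse arrays, on 1 slide read in 1 scan. The authors deposited for each array the scanner output, whose processed signal is a background-corrected linear intensity with no normalization between arrays. The file header names Feature Extraction 10.7.1.1 and the submitters' processing notes 9.5.1.1. The authors also deposited normalized intensities by a method not given in the sources used here. Ranked over probes, their control column matched its array (rank correlation 1.00), whereas their *Drp1*LiKO column did so less (0.958). Whether that column comes from the same scan is not known here, so they served only as an alternative.

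After control and outlier spots were dropped, each probe was the mean log2 signal of its spots minus the 75th percentile of the array. Probes detected well above background by either array were kept, and a dimmer signal was raised to the lowest signal well above background, 18.2 in control and 15.0 in knockout cells. Well above background were 27259 probes in control and 29464 in knockout cells. Having 1 array per genotype limits the precision of all values. A gene was its brightest probe, and the Z score was taken over all kept probes, since no reference population is stated.

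The members and gene lists were chosen with earlier results of these data known. Named genes are all members with every probe, *Dnm1l*, and of each list up to 5 past the threshold and the highest and lowest measured on both arrays. *Park2* and *Atg7* were added after their values were seen. So were the values of the marker genes *Alb*, *Serpina1a*, *Ahsg*, *Cd14*, *Egfl7*, *Acta2* and *Spp1*. No test was possible. The alternatives were quantile normalization, normexp (offset 50), spike-in scaling, the deposited values, other filters, no floor, outliers kept, other Z scores, the median of a gene's probes and 1.5-fold. The steps were tested on simulated data. Python 3.11.15, numpy 2.4.6, pandas 2.3.3, scipy 1.17.1, matplotlib 3.10.9, R 4.3.3 and limma 3.58.1 were used.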

Additional observations from a re-analysis of the deposited data

How the results depend on the processing

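The number of members past the Z score threshold was 0 under each of the 12 alternatives. With the deposited normalized values the median of the members was 0.073 in place of 0.20, and that of the transcription regulators 0.032 in place of 0.11. Of 20 detected member probes 8 turned sign, and the probes of 3 members, in place of 6, shared one. The cause was not tested, and the deposited *Drp1*LiKO column is the one that departs from its array. The median of the hypoxia list, 0.14, was 0.061 with normexp, 0.068 with no floor and 0.068 with the median of the probes.

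Counts past the threshold moved as follows. Genes higher in knockout cells, 702, numbered 1352 with no filter on dim probes, 1719 with a robust Z score and 2103 at 1.5-fold, and genes lower, 567, numbered 1454 with a robust Z score and 2071 at 1.5-fold. For the NRF2 targets the count of 1 became 3 with normexp, 2 with the deposited values, 3 with no filter, 0 with no floor, 4 with a Z score among similarly bright probes, 3 with a robust Z score and 3 at 1.5-fold. For the ATG8 conjugation list the count of 0 became 1 with normexp, no filter, a filter asking for both arrays, a Z score among similarly bright probes or a robust Z score, and 2 at 1.5-fold. For the transcription regulators the count of 1 became 0 with the deposited values or no floor and 2 with a robust Z score or at 1.5-fold. For the hypoxia list 2 became 3 with normexp or a Z score among similarly bright probes, 4 with a robust Z score and 5 at 1.5-fold. For the other mitophagy genes 0 became 1 with normexp, a Z score among similarly bright probes, a robust Z score or 1.5-fold, and for the other adaptors 0 became 1 at 1.5-fold. A fold of 1.5 is by construction a lower threshold than the Z score of 2 here.

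Genes called higher made up 55.3% of the calls as reported, 69.6% with no filter, 42.9% with the deposited values, 61.6% with no floor and 46.3% with a Z score among similarly bright probes. With no filter the median ratio of all genes was -0.47, in place of -0.05, which is the constant that a probe below background on both arrays receives from the floors and the scaling, and the ratios of the 20 detected member probes did not move.

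No paired analysis was possible because each genotype has 1 array. The 2 arrays hold no spread between cultures or animals, so no ratio here can be set against biological error. The dim *Map1lc3b* probe at 0.94 had a control signal of 30.2, beside a lowest signal well above background of 18.2, and was at 0.28 with normexp.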
